A study of Homo sapiens with 42 samples.

Results

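The 13 replication-dependent histone genes that gave measurable mRNA in poly-A selected libraries are described here, out of 8738 genes in the deposited table. They are the genes whose symbol begins with HIST1 to HIST4 and names an H1, H2A, H2B, H3 or H4 histone, and whose FPKM (fragments normalised to transcript length and library depth) was at least 1 in at least 3 of the 42 columns. All 13 such symbols in the table passed that level, so no histone symbol fell outside it. The 6 genes at 1 FPKM or more in all 42 columns were HIST1H2BD, HIST1H2AC, HIST3H2A, HIST2H2BE, HIST1H1C and HIST1H2BK, and the genes nearest to the limit, HIST1H4C and HIST1H2BO, reached it in 21 columns each. By class the set held 1 linker histone gene (HIST1H1C), 3 H2A genes (HIST1H2AC, HIST1H2AG and HIST3H2A), 4 H2B genes (HIST1H2BD, HIST1H2BK, HIST1H2BO and HIST2H2BE), 2 H3 genes (HIST1H3B and HIST1H3H) and 3 H4 genes (HIST1H4C, HIST1H4H and HIST4H4).

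The study measured messenger RNA in MiaPaCa-2 and PANC-1, established cell lines from human pancreatic cancer, to learn how statins affect gene expression. Each line had 7 groups: a control, and fluvastatin, lovastatin or simvastatin at 2 µM or at 20 µM, with 3 libraries per group by the labels. Statins inhibit HMG-CoA reductase and so the mevalonate pathway, which feeds cholesterol synthesis and protein prenylation. Lovastatin and simvastatin are lactones of fungal origin, with 1 more methyl group in simvastatin, and fluvastatin is a synthetic compound of another scaffold. No source used here gives the time of treatment or what the control cells received. Nothing says that replicates were separate cultures, so a p-value reflects the spread of these samples only, which may be technical.

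Most core histone genes are switched on while DNA is being copied, and their mRNAs end in a short conserved stem-loop instead of a poly-A tail. The stem-loop is bound by SLBP, and the mRNA is cut just behind it by the U7 small nuclear ribonucleoprotein. Many of these genes also hold a poly-A signal further downstream, and an RNA cut there carries a tail, a form described in differentiating and non-dividing cells. Capture on poly-T beads keeps RNAs with a tail and largely loses RNAs without one, so the values below are levels of the histone RNA that was captured and not of all histone RNA. The table held 0 RNAs that lack a tail, such as small nuclear and small nucleolar RNAs, so the strength of the selection could not be read from them.

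Stem-loop sites are shown because they mark the 3′ end that poly-T capture would miss. The 16-letter stem-loop motif has 5 free letters. In the GENCODE 29 transcript models (GRCh38) it was found after the stop codon of 8 of the 13 genes. Anywhere in a transcript, 0.264% of 19684 protein-coding genes held it, and 0.251% of the 7981 of the table that could be matched. Both of these shares include the members. The motif (sense strand only) is in capitals below, with the genes in alphabetical order, each site 5′ to 3′ on the strand of its mRNA, as DNA letters.
HIST1H2AC, chromosome 6, plus strand: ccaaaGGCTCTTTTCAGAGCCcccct
HIST1H2AG, chromosome 6, plus strand: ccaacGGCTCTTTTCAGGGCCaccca
HIST1H2BD, chromosome 6, plus strand: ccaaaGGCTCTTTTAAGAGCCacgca
HIST1H3H, chromosome 6, plus strand: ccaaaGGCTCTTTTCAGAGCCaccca
HIST1H4H, chromosome 6, minus strand: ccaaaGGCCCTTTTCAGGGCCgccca
HIST2H2BE, chromosome 1, minus strand: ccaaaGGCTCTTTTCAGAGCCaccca
HIST3H2A, chromosome 1, minus strand: ataaaGGCTCTTTTCAGAGCCaccta
HIST4H4, chromosome 12, minus strand: caaaaGGCCCTTTTCAGGGCCcccaa

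HIST1H2AC, HIST1H3H, HIST2H2BE and HIST3H2A shared the same 16 letters, as did HIST1H4H and HIST4H4. In 7 of the 8 genes a model ran on for more than 100 bases after the motif, the exception being HIST1H2BD, whose motif-bearing model ended 39 bases after it. Of the other 5 genes, HIST1H1C, HIST1H2BK, HIST1H2BO and HIST1H3B had models that stop at the stop codon, so their 3′ ends could not be read, and HIST1H4C had 51 bases after it without the motif. The motif began 31 to 56 bases after the stop codon in the models that hold it, so 51 bases may be too few.

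Poly-A signals of the form AATAAA after the stop codon (sense strand only) were found in 6 of the 13 genes, and those nearest to the end of a model are shown in capitals because they lie where a tailed end would be placed.
HIST1H2AC, chromosome 6, plus strand: catgaggtAATAAAaggtaatgc
HIST1H2AG, chromosome 6, plus strand: aaattcatAATAAAgtgaaatgttcaagtt
HIST1H2BD (longer model), chromosome 6, plus strand: ttataattAATAAAatctgcggagaattgt
HIST1H2BD (shorter model), chromosome 6, plus strand: atgttttcAATAAAtgagttgtaatcattt
HIST1H3H, chromosome 6, plus strand: tatgactaAATAAAatctgtataatcccca
HIST1H4H, chromosome 6, minus strand: aaaaggtgAATAAAatcaggtcactcttct
HIST2H2BE, chromosome 1, minus strand: ttgttattAATAAAgttaccaattaattta

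The last signal lay 1804 bases after the stop codon in HIST1H2AG, 1777 in HIST2H2BE, 1158 in HIST1H2AC, 793 in HIST1H3H and 662 in HIST1H4H, each 9 to 19 bases from the end of the model shown. A second HIST1H2AC model lacked the stem-loop motif and held 1 signal, not shown, at 889 bases after the stop codon and 144 bases from its end. HIST1H2BD had a signal in both models, at 359 bases in the longer one, which lacked the stem-loop motif, and at 64 bases in the shorter one, which held it. HIST3H2A and HIST4H4 held the stem-loop motif and further sequence but no AATAAA in their models. The deposited table gives 1 value per gene, so the forms with and without the stem-loop could not be told apart.

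**Figure D1:**
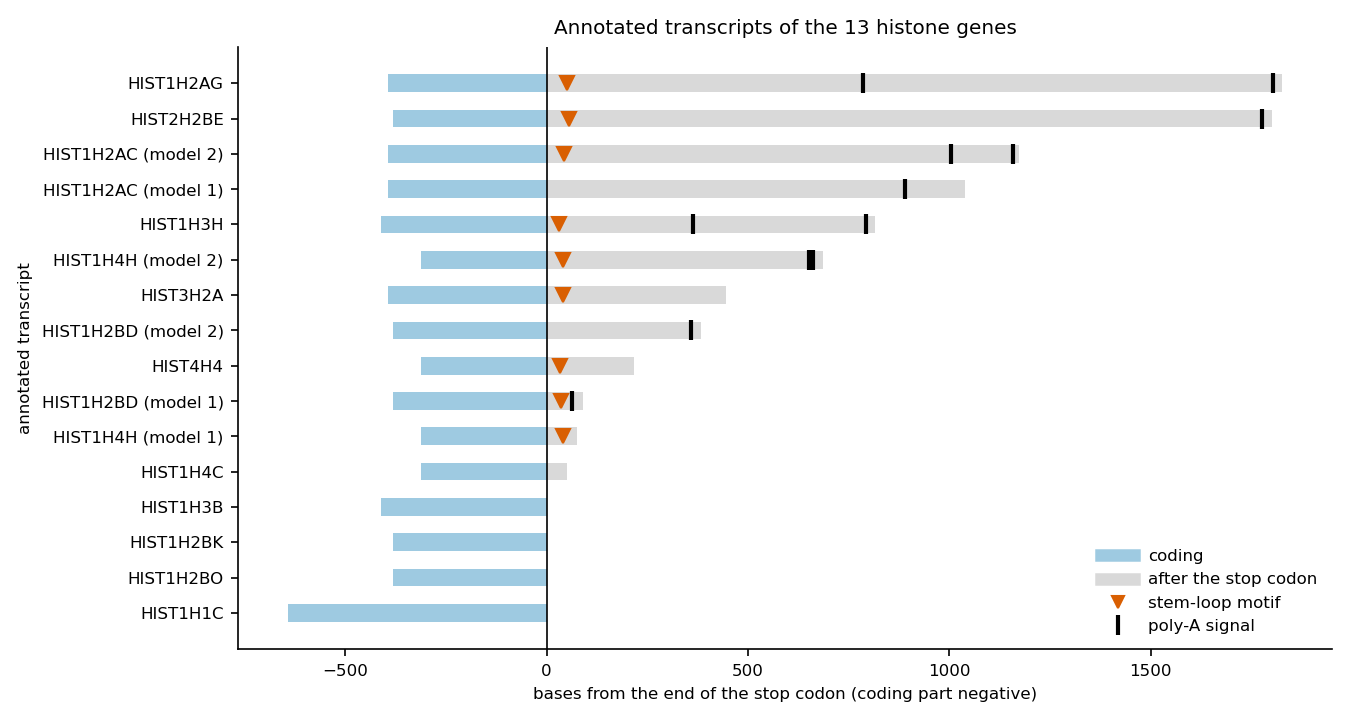
Annotated transcripts of the 13 genes, aligned at the end of the stop codon (horizontal axis in bases, coding part to the left), with the stem-loop motif as a triangle and each AATAAA signal as a black bar. The motif sits 31 to 56 bases after the stop codon in every model that has it, and the last signal sits up to 1804 bases after it.

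Promoters are shown for HIST1H2BD, HIST1H2AC and HIST2H2BE, which rose in both lines at 20 µM, and for HIST1H1C, which fell in MiaPaCa-2. Each window runs from upstream to just downstream of the annotated start of the gene in RefSeq (GRCh38.p14), 5′ to 3′ on the strand of the gene, and a RefSeq promoter was matched for 12 of the 13 genes. Capitals mark the CCAAT box, the TATA box (TATAAA) and the octamer core of H2B promoters (ATTTGCA). All were searched on both strands, so the reverse complement is capitalised too.
HIST1H2BD promoter, chr6:26157871-26158170, plus strand: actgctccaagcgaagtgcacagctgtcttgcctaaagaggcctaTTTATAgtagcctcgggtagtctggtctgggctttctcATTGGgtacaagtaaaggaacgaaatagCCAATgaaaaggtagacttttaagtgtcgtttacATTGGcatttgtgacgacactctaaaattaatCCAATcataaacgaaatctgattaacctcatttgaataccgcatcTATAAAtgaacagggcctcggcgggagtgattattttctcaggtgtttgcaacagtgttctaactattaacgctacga
HIST1H2AC promoter, chr6:26123922-26124221, plus strand: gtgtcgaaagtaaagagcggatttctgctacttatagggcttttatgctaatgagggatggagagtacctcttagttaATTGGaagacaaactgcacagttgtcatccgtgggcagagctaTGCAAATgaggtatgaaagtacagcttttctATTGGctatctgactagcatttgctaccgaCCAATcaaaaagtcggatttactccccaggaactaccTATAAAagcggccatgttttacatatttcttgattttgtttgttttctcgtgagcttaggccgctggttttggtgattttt
HIST2H2BE promoter, chr1:149886633-149886932, minus strand: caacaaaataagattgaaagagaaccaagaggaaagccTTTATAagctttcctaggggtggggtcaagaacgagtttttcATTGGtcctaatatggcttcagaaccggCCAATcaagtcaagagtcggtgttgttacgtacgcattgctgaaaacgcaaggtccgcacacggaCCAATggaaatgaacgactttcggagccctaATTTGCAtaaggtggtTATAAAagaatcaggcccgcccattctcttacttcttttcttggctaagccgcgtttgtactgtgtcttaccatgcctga
HIST1H1C promoter, chr6:26056421-26056720, minus strand: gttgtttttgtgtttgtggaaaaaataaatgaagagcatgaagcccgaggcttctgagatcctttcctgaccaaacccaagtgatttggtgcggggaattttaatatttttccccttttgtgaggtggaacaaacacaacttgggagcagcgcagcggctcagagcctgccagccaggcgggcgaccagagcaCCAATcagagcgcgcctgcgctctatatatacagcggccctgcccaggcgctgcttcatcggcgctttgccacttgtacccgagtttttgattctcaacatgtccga

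CCAAT was present in 10 of the 12 promoters, against 35.7% of 27305 RefSeq promoters of the same length. TATAAA was present in 9 of the 12, against 12% of all promoters, and ATTTGCA in 5 of the 12, against 4.23%. HIST1H2BD held 4 CCAAT and 2 TATAAA matches and HIST1H1C a single CCAAT match, and these matches describe the letters only.

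Before the results, 4 columns need a statement. The columns labelled MiaPaCa-2 control 3 and MiaPaCa-2 lovastatin 20 µM 3 were weighted sums of other columns (largest residual 4.99e-09 on the log2 scale), so they were left out and those groups had n = 2; every other group had n = 3. PANC-1 control 3 correlated with its 2 group mates at 0.9657 to 0.9662, and PANC-1 simvastatin 20 µM replicate 3 with its mates at 0.968, while in the groups without these libraries the lowest value was 0.9844. A set of 10 genes at 20 FPKM or more in MiaPaCa-2 controls and under 1 FPKM in the treated PANC-1 libraries (other than simvastatin 20 µM replicate 3) summed to 71.3 FPKM in PANC-1 control 3. The same sum was 0.908 and 1.45 in PANC-1 controls 1 and 2, 276 and 292 in the MiaPaCa-2 controls, and 5.25 in PANC-1 simvastatin 20 µM replicate 3. Results that use PANC-1 control 3 are therefore given with and without it where that changes them. Keratins KRT8, KRT18 and KRT19, defining epithelial markers, were at 131.88 FPKM or more in every library of both lines, while EPCAM and CDH1 were as low as 0.0654 and 0.0579 FPKM in MiaPaCa-2. The table held 5 of the 6 epithelial markers looked for, 2 of 7 fibroblast markers and 1 of 6 leukocyte markers. COL1A2 was at 24.3 to 216 FPKM in MiaPaCa-2 and as low as 0.0033 FPKM in PANC-1. COL1A1 was at 53.6 to 166 FPKM in PANC-1 and as low as 0.433 FPKM in MiaPaCa-2. CD68 was at 8.85 FPKM or more in both lines. In bulk RNA, fewer cells that make an mRNA and less of it per cell cannot be told apart, and the share of cells copying DNA is not known here. Coding sequences of members of the same class were 81.1% to 92.9% identical, so reads may have been split between near copies. How far this affects the values of single genes was not tested, and histone genes outside the set were not compared.

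HIST1H2BK had the highest level over the 14 group means, at 30.2 FPKM, followed by HIST3H2A at 27.3, HIST1H1C at 26.4, HIST1H2BD at 22.1 and HIST1H2AC at 12.96 FPKM. The other 8 genes lay between 1.62 FPKM (HIST1H3B) and 6.92 FPKM (HIST2H2BE). Each of the 13 had a higher mean over the 7 groups of MiaPaCa-2 than over the 7 groups of PANC-1, for example 36.5 against 23.8 FPKM for HIST1H2BK and 50.3 against 4.24 FPKM for HIST3H2A. HIST1H4C, HIST1H2BO and HIST4H4 reached 1 FPKM in all 19 MiaPaCa-2 libraries and in 0, 0 and 1 of 21 PANC-1 libraries, so for these 3 that direction was built into their being members. The same 3 genes were listed at the lowest value of the column in 12, 12 and 6 of the 21 PANC-1 libraries, and were not tested within PANC-1. The summed level of the 13 genes was 187 and 186 FPKM in the MiaPaCa-2 controls, 122 to 163 FPKM in the 9 libraries at 2 µM, and 283 to 324 FPKM in the 8 libraries at 20 µM. In PANC-1 it was 43.8, 43.7 and 58.1 FPKM in the controls, the last value being that of control 3, 53.1 to 72.4 FPKM at 2 µM and 87.5 to 128 FPKM at 20 µM. In MiaPaCa-2 the sum thus lay below the controls at 2 µM and above them at 20 µM. The 3 dose levels did not overlap. The fall at 2 µM was not shared by the whole set. HIST1H1C averaged 71.3 FPKM in the controls and 40.02, 34.2 and 31.6 with fluvastatin, lovastatin and simvastatin at 2 µM. HIST1H2BK averaged 40.1 FPKM and, in the same order, 20.7, 22.2 and 21.6. By the limma test described below, HIST1H1C and HIST1H2BK were lower at 2 µM with all 3 statins, and HIST1H2BD and HIST4H4 were higher.

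**Figure D2:**
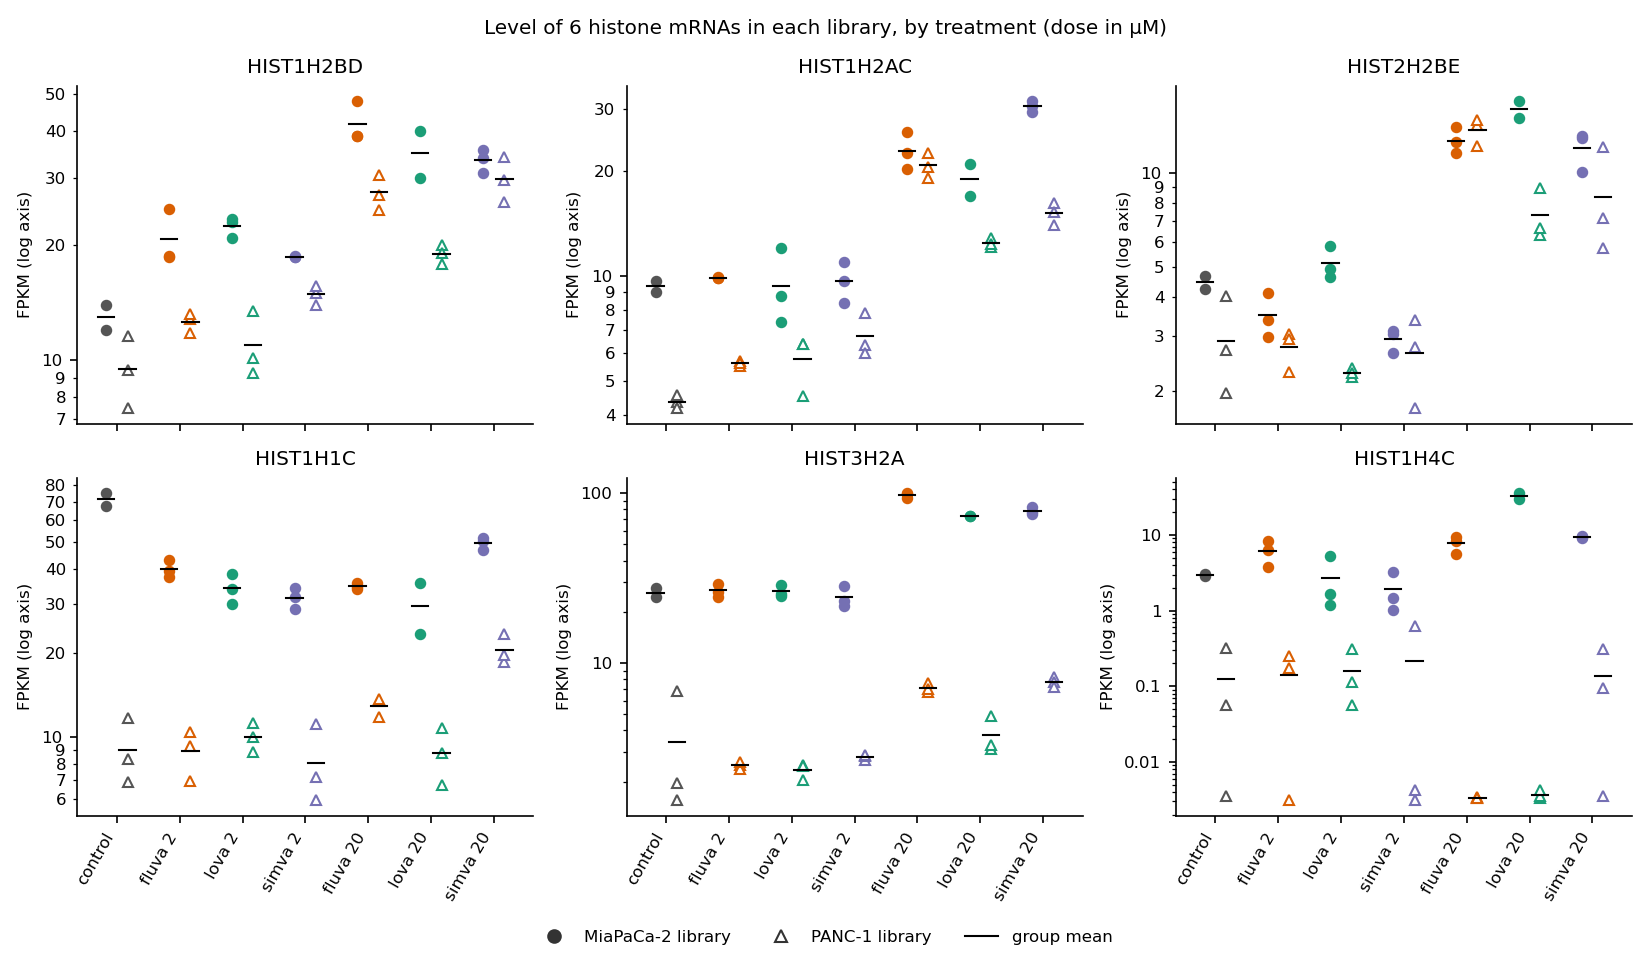
FPKM of 6 histone mRNAs on log axes in each independent library, by treatment (horizontal axis, dose in µM), with MiaPaCa-2 as filled circles, PANC-1 as open triangles and group means as bars. HIST1H2BD, HIST1H2AC and HIST2H2BE are higher at 20 µM in both lines, HIST1H1C is lower in treated MiaPaCa-2, and HIST1H4C lies under 1 FPKM in every PANC-1 library.

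At 20 µM more of the histone mRNAs rose than fell in both lines with each statin. In MiaPaCa-2, limma (Benjamini-Hochberg adjusted p under 0.05 over 8534 genes, two-sided) called 6 of 13 genes higher and 1 lower with fluvastatin, where 32.9% of all genes tested were called higher and 32.5% lower. With lovastatin 9 were higher and 1 lower, against 28.8% and 30.1% of all genes, and with simvastatin 10 and 1, against 32.2% and 33.1%. Leaving out 1 library brought the simvastatin count of higher genes to between 6, without MiaPaCa-2 control 2, and 9, and the count lower to 0 without control 1. The fluvastatin and lovastatin counts also rested in part on single libraries, as given by gene below. HIST1H4C with fluvastatin was 0.97 (adjusted p = 0.0631 in limma) without fluvastatin replicate 2. Without MiaPaCa-2 control 2, which left 1 control, HIST1H3H was at 0.56 with fluvastatin and 0.62 with lovastatin. The median log2 difference of the 13 genes was 0.78, 0.94 and 0.88 for the 3 statins, beside 0.03, 0.01 and 0.01 over all genes tested. In PANC-1, where 10 of the 13 genes passed the filter of 1 FPKM in 3 libraries and 8615 genes were tested, 8 were higher and 1 lower with fluvastatin, against 32.5% and 31% of all genes. Lovastatin gave 5 and 1, against 23.9% and 22.4%, and simvastatin 7 and 1, against 29.4% and 30.2%. Without PANC-1 control 3 the counts were 7 higher and 1 lower with fluvastatin, 5 and 1 with lovastatin and 7 and 1 with simvastatin, where 31.3%, 22.2% and 27.9% of all genes were called higher. Contrasts of the 3 statins share the control libraries of their line and are not independent of each other.

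At 2 µM the picture in MiaPaCa-2 was mixed and in PANC-1 little passed the test. In MiaPaCa-2, 2 of the 13 genes were higher and 2 lower with fluvastatin, against 20.9% and 22.3% of all genes. Lovastatin gave 2 higher and 2 lower, against 21.9% and 23.5%, shares near those of the members. With simvastatin 2 were higher and 5 lower, against 21.7% and 23.8%. In PANC-1, fluvastatin gave 0 calls in limma (4 at an unadjusted p under 0.05), against 2.96% higher and 0.987% lower over all genes, and lovastatin gave 0 (2 at an unadjusted p under 0.05), against 1.97% and 0.836%. Simvastatin gave 2 higher and 0 lower, against 2.69% and 1.28%. Without PANC-1 control 3, fluvastatin at 2 µM gave 1 higher gene, HIST1H2BK at 0.84 (adjusted p = 0.0206), and 1 lower gene, HIST1H3B at -1.22 (adjusted p = 0.0463). HIST1H3B passed the PANC-1 filter through 2 control and 2 simvastatin 2 µM libraries, so a lower level with fluvastatin was built into its being tested. In MiaPaCa-2 single libraries moved these counts. With fluvastatin 1 gene was higher without either control or without fluvastatin replicate 3, and with simvastatin 0 were higher without control 1 and 3 were lower without control 1 or simvastatin replicate 2. In PANC-1 simvastatin gave 1 higher without control 2 or any 1 simvastatin library, and 0 with only those groups fitted. Lovastatin gave 1 higher without lovastatin replicate 2.

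**Figure D3:**
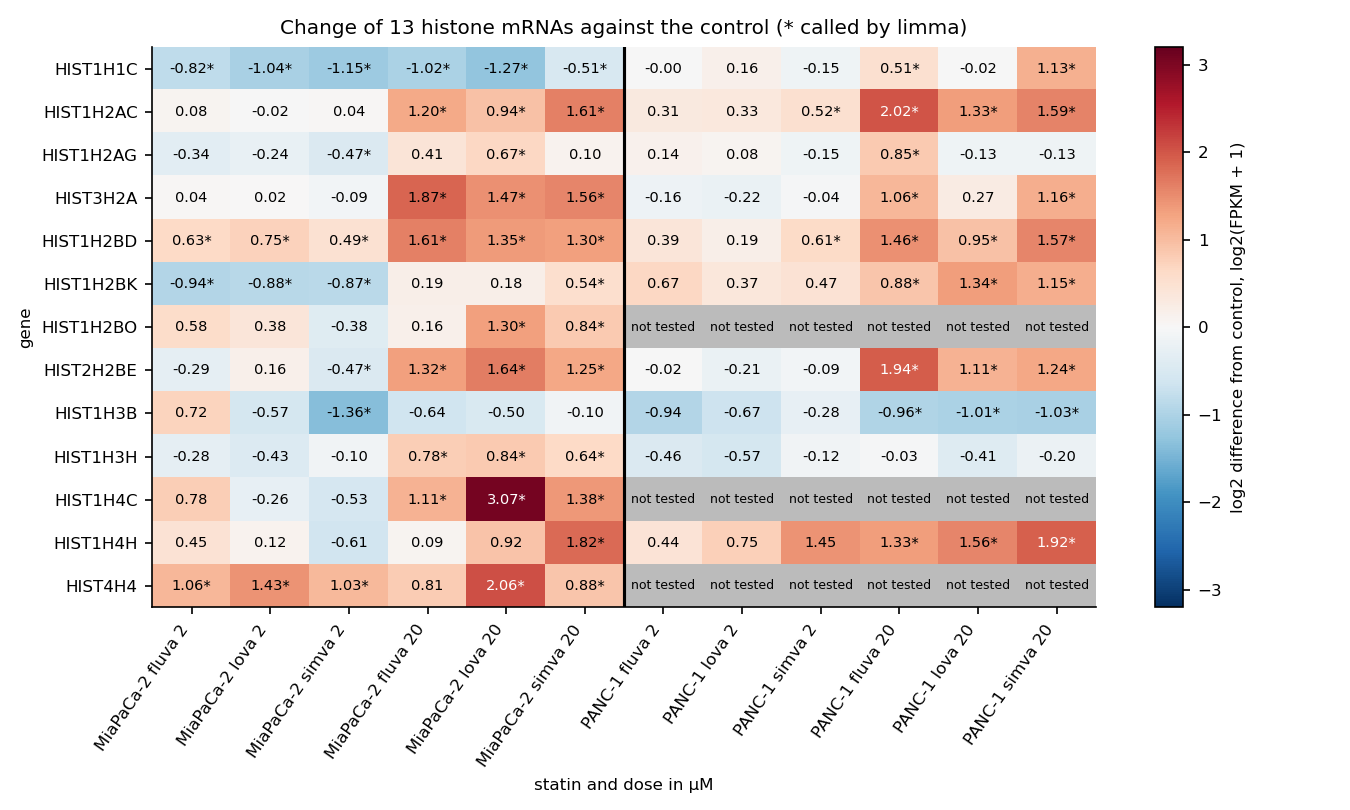
Log2 difference from the control of the line, on the log2(FPKM + 1) scale, for the 13 genes (rows) and the 12 treated groups (columns, dose in µM), with * for a limma call and grey for genes not tested in PANC-1. The columns at 20 µM are mostly positive in both lines, and HIST1H1C is negative in all 6 MiaPaCa-2 columns, from -1.27 to -0.51.

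HIST1H1C encodes a linker histone, the protein that binds DNA where it enters and leaves the nucleosome, and it fell at both doses in MiaPaCa-2 and rose with simvastatin at 20 µM in PANC-1. In MiaPaCa-2 it stood at 74.98 and 67.7 FPKM in the controls, and at 37.5, 39.3 and 43.2 FPKM with fluvastatin, 38.4, 34.1 and 30.1 with lovastatin and 34.4, 31.7 and 28.7 with simvastatin at 2 µM. At 20 µM the values were 34.5, 35.8 and 33.9 FPKM with fluvastatin, 35.6 and 23.5 with lovastatin and 51.7, 46.97 and 50.6 with simvastatin. Every treated MiaPaCa-2 library was below both controls. The log2 differences at 2 µM were -0.82 (SE 0.14, adjusted p = 0.000255) for fluvastatin, -1.04 (SE 0.14, adjusted p = 2.16e-05) for lovastatin and -1.15 (SE 0.14, adjusted p = 7.96e-06) for simvastatin. At 20 µM they were -1.02 (adjusted p = 1.11e-05), -1.27 (adjusted p = 3.67e-06) and -0.51 (adjusted p = 0.00486), the last of which was -0.44 (adjusted p = 0.0552) without MiaPaCa-2 control 1. The gene was thus lower than the control at either dose in MiaPaCa-2, while most other members that changed at 20 µM were higher. In PANC-1 the controls were at 6.898, 8.36 and 11.7 FPKM, and the 20 µM groups at 13.4, 11.8 and 13.7 with fluvastatin, 6.74, 8.77 and 10.8 with lovastatin and 23.4, 18.7 and 19.7 with simvastatin. It rose with simvastatin, by 1.13 (SE 0.21, adjusted p = 0.000186), and by 0.51 (adjusted p = 0.043) with fluvastatin, and its difference with lovastatin was -0.02 (adjusted p = 0.938). The fluvastatin call was lost without PANC-1 control 1, at 0.35 (adjusted p = 0.189), or control 2, at 0.48 (adjusted p = 0.0988), and without any 1 of the fluvastatin 20 µM libraries (adjusted p from 0.051 to 0.104). It was 0.70 (adjusted p = 0.0112) without control 3. With the replicate block it was 0.51 (adjusted p = 0.0506). The libraries with simvastatin at 20 µM were all above the 3 controls, and those with lovastatin overlapped them.

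The H2A genes encode the histone that pairs with H2B in the nucleosome core, and HIST1H2AC had the largest mean log2 rise over the 6 contrasts at 20 µM among the 10 genes tested in both lines, at 1.45. Without PANC-1 control 3 that order turned, with HIST2H2BE at 1.52, HIST3H2A at 1.48 and HIST1H2AC at 1.46. In MiaPaCa-2 it stood at 9.69 and 8.99 FPKM in the controls and at 22.5, 20.2 and 25.8 with fluvastatin, 16.9 and 20.9 with lovastatin and 30.8, 31.6 and 29.5 with simvastatin at 20 µM. In PANC-1 the controls were at 4.34, 4.18 and 4.55 FPKM and the 20 µM groups at 19.1, 20.5 and 22.6 with fluvastatin, 12.9, 12.1 and 12.4 with lovastatin and 16.1, 13.98 and 15.2 with simvastatin. No 20 µM library overlapped the controls of its line. The gene rose by 1.20 (SE 0.16, adjusted p = 8.01e-06), 0.94 (SE 0.18, adjusted p = 0.000295) and 1.61 (SE 0.16, adjusted p = 3e-07) in MiaPaCa-2, in the order fluvastatin, lovastatin and simvastatin. In PANC-1 it rose by 2.02 (adjusted p = 6.98e-11), 1.33 (adjusted p = 6.27e-08) and 1.59 (adjusted p = 4.39e-09). At 2 µM in MiaPaCa-2 the log2 differences were 0.08, -0.02 and 0.04, none past the test, and the lovastatin and simvastatin libraries overlapped the controls. In PANC-1 at 2 µM the simvastatin libraries, at 6.32, 7.85 and 6.02 FPKM, were above the controls by 0.52 (adjusted p = 0.017). The call was lost without PANC-1 control 2, at 0.50 (adjusted p = 0.0554), without simvastatin 2 µM replicate 2, at 0.42 (adjusted p = 0.0923), or when only those 2 groups were fitted, at 0.52 (adjusted p = 0.212).

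HIST3H2A, an H2A gene on chromosome 1 outside the large cluster on chromosome 6, stood at different levels in the lines, with MiaPaCa-2 controls far above PANC-1 controls. MiaPaCa-2 controls were at 24.3 and 27.5 FPKM, and the 20 µM groups at 99.6, 93.4 and 98.6 with fluvastatin, 72.96 and 73.4 with lovastatin and 77.2, 82.5 and 75.4 with simvastatin. The rises were 1.87 (SE 0.11, adjusted p = 4.72e-10), 1.47 (SE 0.12, adjusted p = 4.56e-08) and 1.56 (SE 0.11, adjusted p = 4.84e-09), while at 2 µM the differences were 0.04, 0.02 and -0.09 and did not pass the test. In MiaPaCa-2 its level was 21.5 to 29.2 FPKM over the 9 libraries at 2 µM and was far above them at 20 µM. In PANC-1 the controls were at 1.55, 1.96 and 6.79 FPKM, the third of them being the library described above in which genes high in MiaPaCa-2 summed to 71.3 FPKM. With fluvastatin at 20 µM it was at 7.58, 6.77 and 7.03 FPKM, with lovastatin at 4.88, 3.0998 and 3.296 and with simvastatin at 8.28, 7.68 and 7.25. The fluvastatin and lovastatin groups overlapped the controls only through control 3. With all controls the differences were 1.06 (adjusted p = 0.00239), 0.27 (adjusted p = 0.433) and 1.16 (adjusted p = 0.0013). Without control 3 they were 1.56 (adjusted p = 7.47e-08), 0.77 (adjusted p = 0.000398) and 1.67 (adjusted p = 6.31e-08), so that library decided whether lovastatin was called. The part of MiaPaCa-2 RNA in control 3 was not tested beyond these sums.

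HIST1H2AG, the third H2A gene, was low, at 2.97 and 2.17 FPKM in MiaPaCa-2 controls and 1.12, 1.63 and 0.616 FPKM in PANC-1 controls. It was called higher with lovastatin in MiaPaCa-2, at 4.42 and 4.89 FPKM and 0.67 (adjusted p = 0.00974), and with fluvastatin in PANC-1, at 2.105, 3.01 and 3.19 FPKM and 0.85 (adjusted p = 0.00293). The first call was lost without MiaPaCa-2 control 2, at 0.51 (adjusted p = 0.101), or lovastatin 20 µM replicate 2, at 0.61 (adjusted p = 0.0579), and the second was 0.66 (adjusted p = 0.0193) without PANC-1 control 3. The other 4 contrasts at 20 µM lay between -0.13 and 0.41 on the log2 scale and did not pass the test. At 2 µM it was called lower in 1 contrast, MiaPaCa-2 with simvastatin, at -0.47 (adjusted p = 0.0475). This call was lost on leaving out 1 library (adjusted p from 0.061 to 0.329 without MiaPaCa-2 control 1 or any 1 of the 3 simvastatin libraries), under the replicate block (0.0689) and with only those 2 groups fitted (0.0705).

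Among the H2B genes HIST1H2BD rose in all 6 contrasts at 20 µM and in MiaPaCa-2 also at 2 µM. MiaPaCa-2 controls were at 12.02 and 13.99 FPKM, the 2 µM groups at 24.9, 18.6 and 18.8 with fluvastatin, 20.95, 23.4 and 23.1 with lovastatin and 18.7, 18.7 and 18.6 with simvastatin. At 20 µM the values were 38.8, 47.7 and 38.8 FPKM with fluvastatin, 30.01 and 39.97 with lovastatin and 33.99, 35.5 and 31.05 with simvastatin. All treated libraries were above both controls, and all 20 µM libraries were above all 2 µM libraries of MiaPaCa-2. The differences at 2 µM were 0.63 (adjusted p = 0.00245), 0.75 (adjusted p = 0.000545) and 0.49 (adjusted p = 0.0104), the simvastatin value being 0.39 (adjusted p = 0.113) without MiaPaCa-2 control 1. At 20 µM they were 1.61 (SE 0.14, adjusted p = 6.8e-08), 1.35 (SE 0.16, adjusted p = 2.16e-06) and 1.30 (SE 0.14, adjusted p = 8.73e-07). In PANC-1 the controls were at 7.48, 11.6 and 9.45 FPKM and the 20 µM groups at 27.2, 30.7 and 24.8 with fluvastatin, 20.03, 19.1 and 17.9 with lovastatin and 34.02, 26.01 and 29.7 with simvastatin, with no overlap. Those rises were 1.46 (adjusted p = 9.48e-08), 0.95 (adjusted p = 3.79e-05) and 1.57 (adjusted p = 6.39e-08), the smallest being that of lovastatin. At 2 µM in PANC-1 simvastatin gave 0.61 (adjusted p = 0.021). This call was lost without PANC-1 control 1 at 0.47 (adjusted p = 0.0943), without simvastatin 2 µM replicate 1 at 0.61 (adjusted p = 0.0642) or replicate 3 at 0.58 (adjusted p = 0.0749), and when only the 2 groups were fitted at 0.61 (adjusted p = 0.168).

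HIST2H2BE, an H2B gene on chromosome 1 whose model holds the stem-loop motif and, far downstream, a poly-A signal, rose at 20 µM in both lines. In MiaPaCa-2 it went from 4.69 and 4.24 FPKM in the controls to 14.003, 12.6 and 11.6 with fluvastatin, 15.04 and 16.98 with lovastatin and 10.1, 13.1 and 12.96 with simvastatin. In PANC-1 the controls were at 2.71, 1.97 and 4.04 FPKM and the 20 µM groups at 12.2, 14.2 and 14.7 with fluvastatin, 6.35, 6.67 and 8.98 with lovastatin and 5.74, 7.18 and 12.2 with simvastatin. Neither line showed overlap between the 20 µM libraries and the controls. The rises were 1.32 (adjusted p = 9.64e-07), 1.64 (adjusted p = 3.5e-07) and 1.25 (adjusted p = 2.02e-06) in MiaPaCa-2 and 1.94 (adjusted p = 8.57e-07), 1.11 (adjusted p = 0.000682) and 1.24 (adjusted p = 0.000181) in PANC-1. At 2 µM no rise passed the test, and it was called lower in MiaPaCa-2 with simvastatin, at 3.12, 2.66 and 3.06 FPKM and -0.47 (adjusted p = 0.0163). The call was lost without MiaPaCa-2 control 1, at -0.41 (adjusted p = 0.115), or simvastatin 2 µM replicate 2, at -0.42 (adjusted p = 0.0537).

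HIST1H2BK, the H2B gene with the highest mean level, fell at 2 µM in MiaPaCa-2 and rose at 20 µM in PANC-1. MiaPaCa-2 controls were at 40.02 and 40.3 FPKM and the 2 µM groups at 21.7, 24.1 and 16.3 with fluvastatin, 24.6, 14.3 and 27.5 with lovastatin and 19.7, 23.7 and 21.3 with simvastatin, all below the controls. These falls were -0.94 (adjusted p = 0.00232), -0.88 (adjusted p = 0.00325) and -0.87 (adjusted p = 0.00347). At 20 µM the values were 49.6, 46.1 and 41.99 FPKM with fluvastatin, 48.2 and 43.3 with lovastatin and 51.5, 69.5 and 57.2 with simvastatin. They were above both controls in all 8 libraries, by 0.19 (adjusted p = 0.454), 0.18 (adjusted p = 0.52) and 0.54 (adjusted p = 0.0342). The simvastatin call was lost without MiaPaCa-2 control 1, at 0.54 (adjusted p = 0.114), control 2, at 0.55 (adjusted p = 0.107), simvastatin 20 µM replicate 2, at 0.43 (adjusted p = 0.119), or replicate 3, at 0.56 (adjusted p = 0.0535). In PANC-1 it was at 12.84, 11.1 and 17.4 FPKM in the controls and at 20.4, 27.5 and 30.3 with fluvastatin, 34.6, 31.5 and 41.98 with lovastatin and 30.8, 35.6 and 27.9 with simvastatin at 20 µM. The rises were 0.88 (adjusted p = 0.000632), 1.34 (adjusted p = 1.75e-05) and 1.15 (adjusted p = 5.9e-05), and no library at 20 µM overlapped the controls.

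HIST1H2BO, the fourth H2B gene, was at 2.205 and 1.82 FPKM in MiaPaCa-2 controls and at 2.84, 1.17 and 3.54 with fluvastatin, 5.99 and 6.85 with lovastatin and 6.33, 3.87 and 3.37 with simvastatin at 20 µM. It rose with lovastatin, by 1.30 (adjusted p = 0.00154), and with simvastatin, by 0.84 (adjusted p = 0.0134), and its difference with fluvastatin was 0.16 (adjusted p = 0.625), with libraries on both sides of the controls. The simvastatin call was lost without MiaPaCa-2 control 2, at 0.75 (adjusted p = 0.0869), or simvastatin 20 µM replicate 1, at 0.62 (adjusted p = 0.0645). In PANC-1 all 21 libraries were under 1 FPKM.

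The H3 genes encode the core histone whose tail carries many of the known chromatin marks, and the pair behaved differently from each other. HIST1H3H was at 5.598 and 3.86 FPKM in MiaPaCa-2 controls and at 10.9, 7.66 and 7.95 with fluvastatin, 9.58 and 8.68 with lovastatin and 8.52, 7.56 and 7.39 with simvastatin at 20 µM, all above the controls. Its rises were 0.78 (adjusted p = 0.00342), 0.84 (adjusted p = 0.00467) and 0.64 (adjusted p = 0.0126). Without MiaPaCa-2 control 2, which was the lower one, they were 0.56 (adjusted p = 0.0723), 0.62 (adjusted p = 0.0689) and 0.42 (adjusted p = 0.175), so that library decided all 3 calls. In PANC-1 HIST1H3H was at 0.0875 to 1.72 FPKM over the 21 libraries, and its 20 µM differences of -0.03, -0.41 and -0.20 did not pass the test.

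HIST1H3B, the other H3 gene, was at 2.75 and 3.84 FPKM in MiaPaCa-2 controls, and its differences at 20 µM, -0.64, -0.50 and -0.10, did not pass the test. At 2 µM it was at 7.82, 3.21 and 8.34 FPKM with fluvastatin and at 0.906, 1.302 and 0.0532 FPKM with simvastatin, and the fall with simvastatin was -1.36 (adjusted p = 0.00655), or -1.17 (adjusted p = 0.0684) without MiaPaCa-2 control 2. The libraries with fluvastatin and those with simvastatin at 2 µM did not overlap. In PANC-1 the controls were at 2.05, 1.41 and 0.504 FPKM and the 20 µM groups at 0.183, 0.275 and 0.0033 with fluvastatin, 0.0033, 0.0035 and 0.352 with lovastatin and 0.183, 0.0035 and 0.0952 with simvastatin. Of these 9 libraries 5 were listed at the lowest value of their column. The falls were -0.96 (adjusted p = 0.015), -1.01 (adjusted p = 0.0159) and -1.03 (adjusted p = 0.0107). It passed the filter in PANC-1 through 2 control and 2 simvastatin 2 µM libraries, 4 of 21 in all, so a lower level elsewhere was built into its being tested. All 3 calls were lost without PANC-1 control 1, at -0.73 (adjusted p = 0.081), -0.78 (adjusted p = 0.0813) and -0.80 (adjusted p = 0.0606). The fluvastatin call was also lost without fluvastatin replicate 3, at -0.86 (adjusted p = 0.0536), and the lovastatin call without lovastatin replicate 1 or 2, at an adjusted p of 0.0516 and 0.0517.

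The H4 genes encode the same core histone protein from separate loci, and lovastatin at 20 µM gave the highest level of HIST1H4C. In MiaPaCa-2 HIST1H4C was at 2.899 and 3.08 FPKM in the controls and at 29.6 and 35.6 FPKM with lovastatin, 8.27, 9.35 and 5.61 with fluvastatin and 9.17, 9.35 and 9.597 with simvastatin at 20 µM. The rises were 3.07 (SE 0.42, adjusted p = 1.36e-05) for lovastatin, 1.11 (SE 0.39, adjusted p = 0.0197) for fluvastatin and 1.38 (SE 0.39, adjusted p = 0.00525) for simvastatin. Every 20 µM library was above the controls, and the fluvastatin call was lost without MiaPaCa-2 control 1, at 1.07 (adjusted p = 0.0856), control 2, at 1.14 (adjusted p = 0.0678), or fluvastatin replicate 2, at 0.97 (adjusted p = 0.0631). At 2 µM the libraries ranged from 1.03 to 8.38 FPKM, with no call. In PANC-1 none of the 21 libraries reached 1 FPKM, and 12 were at the lowest value of their column, all 6 libraries with fluvastatin or lovastatin at 20 µM among them.

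HIST1H4H varied widely between libraries of a group, with 3.02 and 7.03 FPKM in MiaPaCa-2 controls and 2.66, 0.362 and 0.0642 FPKM in PANC-1 controls. It was called higher in MiaPaCa-2 with simvastatin at 20 µM, at 14.2, 17.1 and 28.2 FPKM and 1.82 (adjusted p = 0.00198), while the differences with fluvastatin, 0.09 (adjusted p = 0.863), and lovastatin, 0.92 (adjusted p = 0.114), did not pass the test. The simvastatin value was 1.32 (adjusted p = 0.0513) without MiaPaCa-2 control 1. In PANC-1 the 20 µM libraries were at 1.07, 4.202 and 6.87 FPKM with fluvastatin, 5.33, 3.896 and 3.395 with lovastatin and 2.797, 4.21 and 13.5 with simvastatin. The rises were 1.33 (adjusted p = 0.034), 1.56 (adjusted p = 0.0211) and 1.92 (adjusted p = 0.00446), and without PANC-1 control 3 they were 0.98 (adjusted p = 0.15), 1.20 (adjusted p = 0.0997) and 1.56 (adjusted p = 0.0281). Without both PANC-1 control 3 and simvastatin replicate 3 the simvastatin value was 0.99 (adjusted p = 0.131). Without PANC-1 control 2 the fluvastatin and lovastatin values were 1.15 (adjusted p = 0.104) and 1.38 (adjusted p = 0.0726), so both calls rest on single libraries. Fluvastatin replicate 2 or 3 and lovastatin replicate 1, left out singly, also ended them, at an adjusted p of 0.0925, 0.17 and 0.0698.

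HIST4H4, the H4 gene on chromosome 12, was at 2.06 and 1.69 FPKM in MiaPaCa-2 controls. At 2 µM it was at 4.102, 4.76 and 6.26 FPKM with fluvastatin, 3.77, 9.42 and 8.36 with lovastatin and 5.04, 3.6005 and 6.28 with simvastatin, while at 20 µM it was at 7.03, 2.61 and 3.41 with fluvastatin, 11.4 and 10.7 with lovastatin and 5.49, 2.48 and 5.58 with simvastatin. Every treated MiaPaCa-2 library was above both controls. It rose at 2 µM by 1.06 (adjusted p = 0.0294), 1.43 (adjusted p = 0.00477) and 1.03 (adjusted p = 0.0309). At 20 µM it rose by 2.06 (adjusted p = 0.000386) with lovastatin and 0.88 (adjusted p = 0.0446) with simvastatin, the fluvastatin difference being 0.81 (adjusted p = 0.063). Of these calls those of lovastatin were kept on leaving out any 1 library. The others were lost without either MiaPaCa-2 control, at an adjusted p of 0.0848 and 0.144 for fluvastatin at 2 µM, 0.0855 and 0.147 for simvastatin at 2 µM, and 0.0969 and 0.174 for simvastatin at 20 µM. They were also lost without single treated libraries, at an adjusted p of 0.0521 (replicate 2) and 0.0894 (replicate 3) for fluvastatin at 2 µM, 0.0637 (replicate 1) and 0.0956 (replicate 3) for simvastatin at 2 µM, and 0.127 (replicate 1) and 0.131 (replicate 3) for simvastatin at 20 µM. The replicate block also ended both simvastatin calls, at an adjusted p of 0.0519 and 0.074. In PANC-1 its 1 library at 1 FPKM or more was control 3, at 1.82 FPKM.

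Members that rose from 2 to 20 µM included the 4 genes HIST1H2BD, HIST1H2AC, HIST2H2BE and HIST3H2A in MiaPaCa-2 with each statin. With fluvastatin 7 of 13 were higher at 20 than at 2 µM and 1, HIST1H3B, lower, against 33.1% and 30.4% of all genes. With lovastatin 9 were higher, against 29.3% of all genes, and with simvastatin 12, against 35.4%, HIST4H4 being the 1 member not called with simvastatin. Without lovastatin 20 µM replicate 2 the lovastatin value of HIST1H2BD was 0.40 (adjusted p = 0.0598) and that of HIST1H2BO 0.84 (adjusted p = 0.0673). HIST1H2BK rose between the doses by 1.12 (adjusted p = 9.1e-05), 1.06 (adjusted p = 0.00053) and 1.41 (adjusted p = 6.72e-06), and HIST1H1C by 0.64 (adjusted p = 0.000299) with simvastatin. In PANC-1 the counts of 10 were 6 higher with fluvastatin, against 32% of all genes, 4 with lovastatin, against 23.7%, and 6 with simvastatin, against 29.4%. HIST1H2AC rose there with each statin, by 1.71 (adjusted p = 7.44e-10), 1.00 (adjusted p = 2.22e-06) and 1.07 (adjusted p = 6.98e-07). HIST1H1C rose with fluvastatin by 0.51 (adjusted p = 0.0427) and with simvastatin by 1.28 (adjusted p = 5.33e-05). The first call was lost without any 1 of the fluvastatin 20 µM libraries or of fluvastatin 2 µM replicates 2 and 3 (adjusted p from 0.0508 to 0.187). These contrasts hold no control library, so PANC-1 control 3 enters them only through the shared variance.

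The 3 statins were compared in 12 pairs, 3 at each dose and in each line, with 95% intervals from the same limma fit and p-values adjusted over all genes of the pair. At 20 µM in MiaPaCa-2 lovastatin gave higher H4 levels than either other statin for HIST1H4C and HIST4H4. HIST1H4C with fluvastatin minus lovastatin was -1.96 (95% interval -2.78 to -1.14, adjusted p = 0.00166), and with simvastatin minus lovastatin -1.69 (95% interval -2.51 to -0.87, adjusted p = 0.00284). For HIST4H4 the same differences were -1.25 (95% interval -2.03 to -0.47, adjusted p = 0.0212) and -1.18 (95% interval -1.96 to -0.40, adjusted p = 0.019). No library of the other statins reached the lovastatin libraries of either gene. Between fluvastatin and simvastatin the intervals were -1.01 to 0.46 for HIST1H4C and -0.77 to 0.62 for HIST4H4, neither past the test. HIST1H4H was higher with simvastatin than with fluvastatin, fluvastatin minus simvastatin being -1.73 (95% interval -2.57 to -0.88, adjusted p = 0.00159). The pair lovastatin and simvastatin, which differ by a methyl group, also differed in HIST1H1C, 0.76 (95% interval 0.46 to 1.06, adjusted p = 0.000602), HIST1H2AC, 0.67 (95% interval 0.33 to 1.02, adjusted p = 0.0041), and HIST1H2AG, -0.57 (95% interval -0.97 to -0.18, adjusted p = 0.0238), as simvastatin minus lovastatin. HIST1H2BD did not differ past the test in any of the 3 pairs, with intervals of -0.05 to 0.56, -0.35 to 0.26 and 0.03 to 0.58, which do not show that the statins act alike. In all 4 of 13 members were called for fluvastatin against lovastatin, 5 for simvastatin against lovastatin and 5 for fluvastatin against simvastatin, where 23.5%, 37.3% and 56.2% of all genes were called. The share of members was thus near that of all genes for simvastatin against lovastatin, and under it for fluvastatin against simvastatin. Some of these calls rested on 1 library: HIST4H4 lost both without lovastatin replicate 1 (adjusted p = 0.0983 and 0.0897) or 2 (0.0921 and 0.0761), HIST1H2AG lost its call without either (0.062 and 0.134), and HIST1H2AC lost its call without lovastatin replicate 1 (0.0629). HIST4H4 and HIST1H2AG also lost calls without fluvastatin replicates 2 or 3 (0.0832 and 0.0635), simvastatin replicate 2 (0.0812 and 0.0736) or simvastatin replicate 3 (HIST1H2AG, 0.0825), and with only the groups of the pair fitted (0.0555 for fluvastatin against lovastatin in HIST4H4 and 0.0819 in HIST1H2AG). The lovastatin group at 20 µM had 2 libraries, and leaving 1 library out left 1 to 4, 2 to 5 and 3 to 5 members called in these pairs.

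In PANC-1 at 20 µM lovastatin gave a smaller rise than another statin for several members. HIST1H2BD was higher with fluvastatin than with lovastatin by 0.51 (95% interval 0.20 to 0.81, adjusted p = 0.0124) and with simvastatin than with lovastatin by 0.62 (95% interval 0.31 to 0.93, adjusted p = 0.0029). HIST1H1C was higher with simvastatin than with lovastatin by 1.16 (95% interval 0.71 to 1.60, adjusted p = 0.000438), and fluvastatin minus simvastatin was -0.62 (95% interval -1.07 to -0.18, adjusted p = 0.0215). Fluvastatin gave more HIST1H2AC than lovastatin, by 0.69 (95% interval 0.44 to 0.94, adjusted p = 0.000252), and than simvastatin, by 0.43 (95% interval 0.18 to 0.68, adjusted p = 0.00673). Its fluvastatin libraries were above all others of the line. Fluvastatin also gave more HIST1H2AG, at 0.97 (95% interval 0.51 to 1.44, adjusted p = 0.00261) and 0.98 (95% interval 0.51 to 1.44, adjusted p = 0.00159), against lovastatin and simvastatin in turn. For HIST2H2BE the same differences were 0.83 (95% interval 0.35 to 1.31, adjusted p = 0.0103) and 0.71 (95% interval 0.22 to 1.19, adjusted p = 0.017). HIST3H2A was lower with lovastatin than with fluvastatin, by 0.79 (95% interval 0.22 to 1.36, adjusted p = 0.0339), and than with simvastatin, by 0.89 (95% interval 0.33 to 1.46, adjusted p = 0.0146). Single libraries decided several of these calls: without fluvastatin replicate 2, HIST1H2BD was 0.43 (adjusted p = 0.0611) against lovastatin and HIST1H1C -0.56 (adjusted p = 0.0712) against simvastatin, and without simvastatin replicate 1 the latter was -0.53 (adjusted p = 0.0792). HIST2H2BE against simvastatin was lost without fluvastatin replicate 3 or simvastatin replicate 1 or 2 (adjusted p from 0.0554 to 0.0989) and with only those groups fitted (0.0594). The HIST3H2A call against fluvastatin was lost without any 1 fluvastatin library or lovastatin replicate 2 or 3 (adjusted p from 0.0631 to 0.114), and that against simvastatin without lovastatin replicate 2 (0.0564) or 3 (0.0503). Counts of 10 members called were 5, 3 and 4 for fluvastatin against lovastatin, simvastatin against lovastatin and fluvastatin against simvastatin, where 30.7%, 38.5% and 47.5% of all genes were called. For simvastatin against lovastatin and for fluvastatin against simvastatin the share of members was under that of all genes. At 2 µM the 1 member called in any pair was HIST1H3B in MiaPaCa-2. It stood at 7.82, 3.21 and 8.34 FPKM with fluvastatin and 0.906, 1.302 and 0.0532 FPKM with simvastatin, a difference of 2.08 (95% interval 1.38 to 2.77, adjusted p = 0.0134). Of all genes 0.562% were called. That call was lost without fluvastatin replicate 3 (adjusted p = 0.0747), without simvastatin replicate 3 (0.0615) or with only those groups fitted (0.191). In the other 5 pairs at 2 µM limma called 0 members, with 3, 3, 0, 1 and 0 at an unadjusted p under 0.05 and 0%, 0.293%, 0.0116%, 0% and 0.0116% of all genes called.

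**Figure D4:**
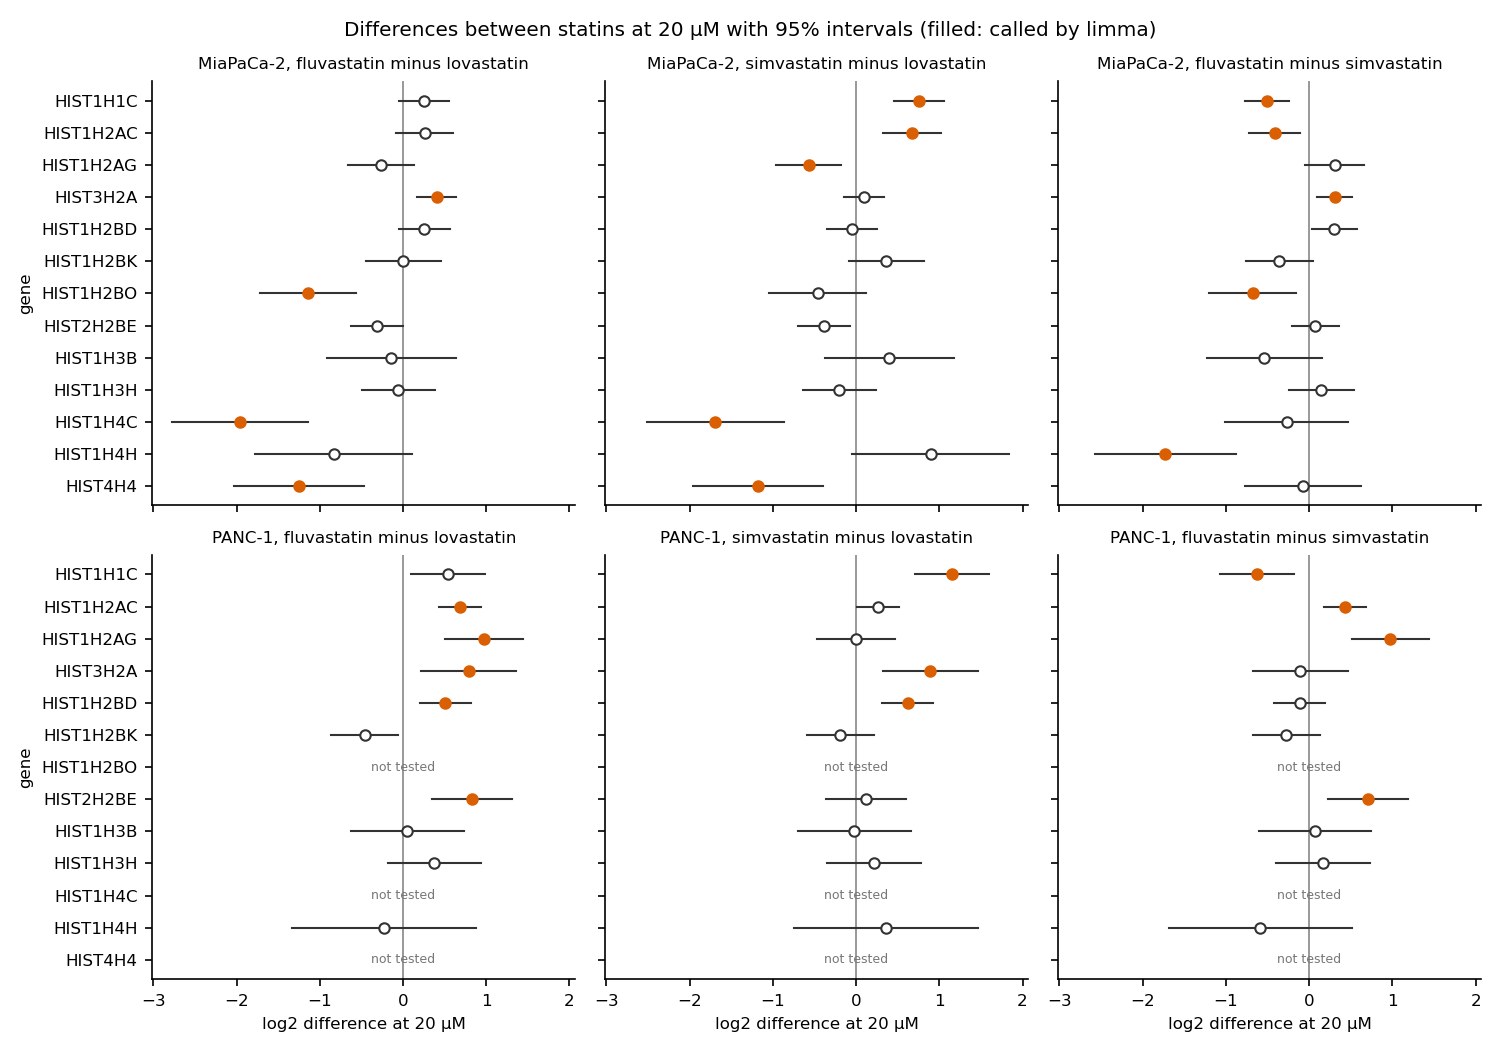
Differences between statins at 20 µM on the log2(FPKM + 1) scale (horizontal axis) for each gene, as points with 95% intervals, by line (rows of panels) and pair (columns of panels), filled where limma called the difference. HIST1H4C and HIST4H4 lie furthest to the left in the MiaPaCa-2 pairs that subtract lovastatin.

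Untreated MiaPaCa-2 cells had higher mean levels of the histone mRNAs of the set than untreated PANC-1 cells. All 13 genes were called higher in MiaPaCa-2 in the joint fit of 8738 genes, where 35.9% of all genes were called higher and 28.7% lower. For HIST1H4C, HIST1H2BO and HIST4H4, which became members through MiaPaCa-2 libraries, that direction was built in, and the calls are a description. HIST1H1C was at 74.98 and 67.7 FPKM against 6.898, 8.36 and 11.7 FPKM, a difference of 2.88 (SE 0.20, adjusted p = 1.76e-13). HIST3H2A differed by 2.78 (adjusted p = 1.7e-11), or 3.29 (adjusted p = 8.76e-19) without PANC-1 control 3, and HIST1H2BK by 1.502 (adjusted p = 6.95e-07). The smallest differences were those of HIST1H2BD, 0.43 (adjusted p = 0.0165), and HIST2H2BE, 0.52 (adjusted p = 0.0361). Without PANC-1 control 3, 12 of the 13 were called, HIST1H3B being 0.65 (adjusted p = 0.146). Without MiaPaCa-2 control 2, 8 were called, and HIST1H2BD was then 0.33 (adjusted p = 0.158), HIST1H3B 0.75 (adjusted p = 0.178), HIST1H4H 1.20 (adjusted p = 0.14) and HIST2H2BE 0.58 (adjusted p = 0.0767). HIST4H4, whose groups overlapped through PANC-1 control 3, lost its call without any 1 of the other 4 control libraries (adjusted p from 0.0574 to 0.121), and HIST2H2BE likewise (adjusted p from 0.0739 to 0.198). HIST1H2BD was 0.28 (adjusted p = 0.123) without PANC-1 control 1, and HIST1H2AG was 0.61 (adjusted p = 0.0607) without MiaPaCa-2 control 1. With only the control groups fitted, HIST1H2BD, HIST2H2BE and HIST4H4 lost their calls (adjusted p = 0.104, 0.121 and 0.116), and with a pseudocount of 0.1 HIST1H3B did (adjusted p = 0.209).

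The response to 20 µM differed between the lines for some members, tested as the MiaPaCa-2 response minus the PANC-1 response. HIST1H1C differed with every statin, at -1.53 (SE 0.27, adjusted p = 5.35e-05) for fluvastatin, -1.24 (SE 0.29, adjusted p = 0.00125) for lovastatin and -1.64 (SE 0.27, adjusted p = 1.37e-05) for simvastatin, with a called fall in MiaPaCa-2 for each statin and no called fall in PANC-1. HIST1H4C differed at 1.26 (SE 0.42, adjusted p = 0.0191), 3.22 (SE 0.44, adjusted p = 1.33e-06) and 1.36 (SE 0.42, adjusted p = 0.00882). HIST4H4 differed at 1.33 (adjusted p = 0.0315), 2.53 (adjusted p = 0.000261) and 1.22 (adjusted p = 0.038). Both genes were under 1 FPKM in every PANC-1 library but control 3 of HIST4H4. They and HIST1H2BO became members through MiaPaCa-2 libraries, so their PANC-1 response could not be read and their calls here are a description. Without PANC-1 control 3 HIST4H4 was 0.87 (adjusted p = 0.13), 2.08 (adjusted p = 0.000873) and 0.76 (adjusted p = 0.155). With lovastatin the response of HIST1H2BK was smaller in MiaPaCa-2, at -1.16 (adjusted p = 0.00499), and that of HIST3H2A larger, at 1.20 (adjusted p = 0.00701), or 0.70 (adjusted p = 0.00472) without PANC-1 control 3. With fluvastatin HIST3H2A gave 0.81 (adjusted p = 0.0497), and 0.31 (adjusted p = 0.186) without that library. HIST1H2AC with fluvastatin was smaller in MiaPaCa-2, at -0.82 (adjusted p = 0.00151). With only the groups of the contrast fitted, both HIST3H2A calls were lost (adjusted p = 0.153 for lovastatin and 0.235 for fluvastatin). So were those of HIST4H4 with fluvastatin (0.0983) and simvastatin (0.12). The replicate block ended the HIST3H2A call with fluvastatin, at 0.77 (adjusted p = 0.0671). The HIST1H4C value with fluvastatin was 1.23 (adjusted p = 0.062) without MiaPaCa-2 control 1 and 1.13 (adjusted p = 0.0506) without MiaPaCa-2 fluvastatin replicate 2. Those of HIST4H4 with fluvastatin and simvastatin, and that of HIST3H2A with fluvastatin, were also lost without single other libraries (adjusted p from 0.0541 to 0.16). With a pseudocount of 0.1 HIST1H4C was 2.19 (adjusted p = 0.0803) for fluvastatin and 1.52 (adjusted p = 0.203) for simvastatin, and HIST4H4 2.57 (adjusted p = 0.074) and 1.98 (adjusted p = 0.147). HIST3H2A with fluvastatin was then 0.57 (adjusted p = 0.287). HIST1H2BD, HIST2H2BE and HIST1H4H did not differ past the test for any statin, HIST1H2BD having intervals of -0.27 to 0.58, -0.04 to 0.85 and -0.69 to 0.16. In all, 5, 8 and 4 of the 13 members were called for the 3 statins, where 34.2%, 32.5% and 46.1% of all genes were called. HIST1H4C and HIST4H4 are in each of these counts, and HIST1H2BO is in that of lovastatin. The fluvastatin share of members is near that of all genes, and the simvastatin share is under it. With the pseudocount of 0.1 the counts were 2, 5 and 1. With a pseudocount of 1 they were 2 or 3 with fluvastatin without either MiaPaCa-2 control or fluvastatin replicate 1 or 2 of that line, and 2 with simvastatin without MiaPaCa-2 control 2, MiaPaCa-2 simvastatin replicate 1 or PANC-1 simvastatin replicate 3.

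**Figure D5:**
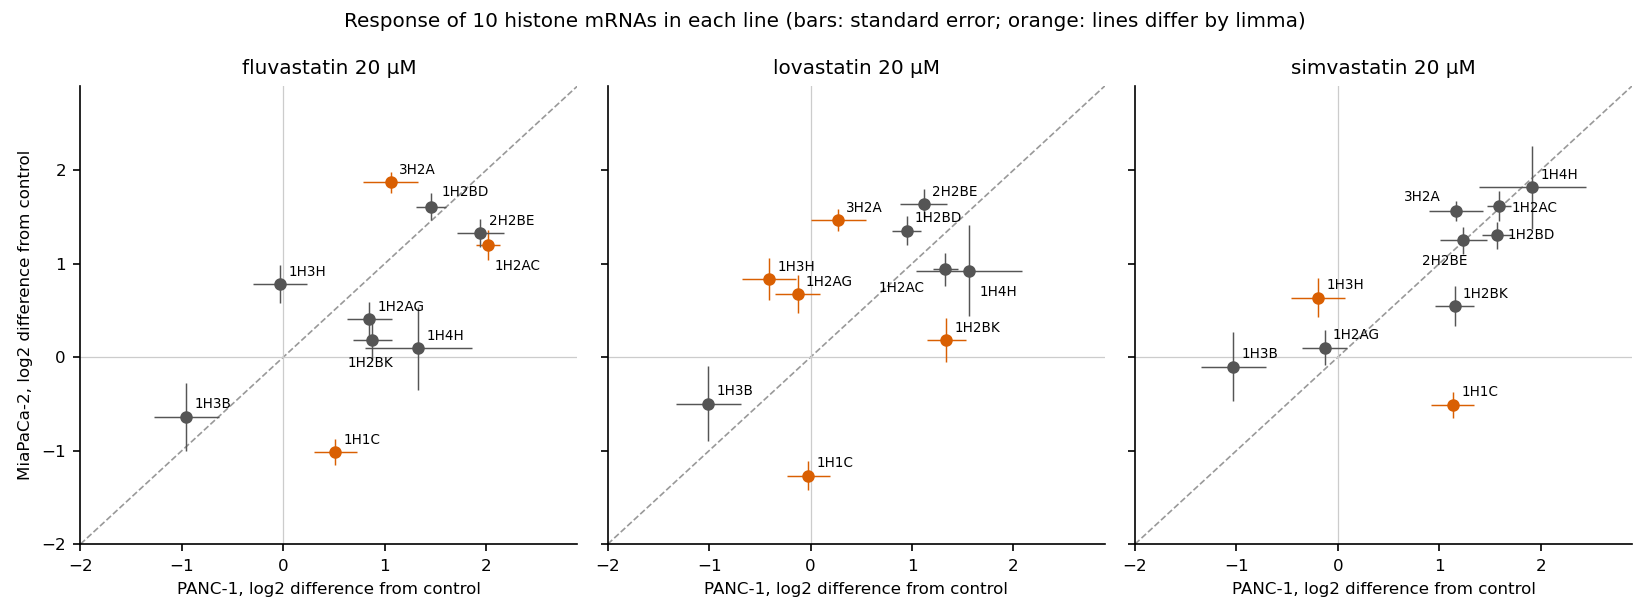
Log2 difference from the control at 20 µM in PANC-1 (horizontal axis) against MiaPaCa-2 (vertical axis) for the 10 genes tested in both lines, with standard errors as bars, labels without the letters HIST, and orange where limma called the difference between the lines. HIST1H1C lies below the dashed line of equal response in all 3 panels.

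Genes of DNA replication and histone chaperones, listed with earlier results of these data known, mostly fell at 20 µM, while more of the histone mRNAs above rose than fell. Of the 23 DNA replication genes, 23, 21 and 22 were called lower in MiaPaCa-2 and 23, 21 and 22 in PANC-1 with fluvastatin, lovastatin and simvastatin, and the rest did not pass the test in limma. Of all genes tested, 32.5%, 30.1% and 33.1% were called lower in MiaPaCa-2 and 31%, 22.4% and 30.2% in PANC-1, and the lists that follow are read against these shares. The median log2 differences of the replication genes were -2.57, -2.27 and -2.17 in MiaPaCa-2 and -2.87, -1.04 and -1.32 in PANC-1, beside medians from -0.01 to 0.03 over all genes tested. RRM2, a subunit of the enzyme that makes deoxynucleotides, went from 312 ± 5.78 FPKM (SD, n = 2) in MiaPaCa-2 controls to 8.13 ± 2.88 FPKM (SD, n = 3) with fluvastatin, a difference of -5.15 (adjusted p = 1.22e-12) by limma. Of 13 histone chaperones tested, 11, 12 and 11 were lower in MiaPaCa-2 and 10, 11 and 10 in PANC-1. ASF1B, which hands new H3 and H4 to the assembly machinery, was at -3.34 (adjusted p = 1.8e-10) and -3.23 (adjusted p = 4.6e-12) with fluvastatin. Of 12 genes of histone transcription and 3′ processing tested out of 19 listed, 10, 9 and 7 were lower in MiaPaCa-2 and 9, 6 and 7 in PANC-1, with 0, 0 and 1 and 1, 1 and 1 higher. ERI1, an exonuclease that trims the histone stem-loop end, was at 20.5 ± 0.146 FPKM (SD, n = 2) in MiaPaCa-2 controls and fell there, with log2 differences of -0.95 (adjusted p = 5.92e-05), -1.17 (adjusted p = 2.46e-05) and -1.18 (adjusted p = 6.53e-06). CSTF2, a subunit shared by poly-A site cleavage and histone 3′ end processing, fell with fluvastatin, with log2 differences of -1.49 (adjusted p = 2.53e-06) in MiaPaCa-2 and -1.47 (adjusted p = 7.1e-09) in PANC-1.

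Of 9 further cleavage and polyadenylation genes tested, 4, 5 and 5 were lower and 2, 2 and 0 higher in MiaPaCa-2, and 3, 1 and 3 lower and 1, 0 and 0 higher in PANC-1. The PANC-1 counts lower are close to or under the shares of all genes, 31%, 22.4% and 30.2%. The medians were -0.37, -0.37 and -0.11 in MiaPaCa-2 and -0.16, -0.16 and -0.36 in PANC-1. Replication-independent histone genes, whose mRNAs carry a tail as a rule, fell more often than they rose in each contrast at 20 µM. Of 10 tested, 7, 6 and 5 were lower in MiaPaCa-2 and 9, 9 and 6 in PANC-1, and 2, 2 and 2 were higher in MiaPaCa-2 and 1, 1 and 1 in PANC-1. H2AFZ, which encodes the H2A variant found at gene starts, was at 480 ± 3.19 FPKM (SD, n = 2) in MiaPaCa-2 controls and at 119 ± 3.66 FPKM (SD, n = 3) with fluvastatin, -2.01 (adjusted p = 1.86e-12) by limma. CENPA, the H3 variant of centromeres, fell with fluvastatin, with log2 differences of -3.66 (adjusted p = 9.11e-10) there and -3.03 (adjusted p = 1.68e-10) in PANC-1. Of 11 cell cycle inhibitors and quiescence genes tested, 9, 8 and 6 were higher and 2, 2 and 3 lower in MiaPaCa-2, and 7, 4 and 5 higher and 1, 1 and 1 lower in PANC-1. Of all genes, 32.9%, 28.8% and 32.2% were called higher in MiaPaCa-2 and 32.5%, 23.9% and 29.4% in PANC-1. CDKN1A, which blocks cyclin-dependent kinases, rose by 3.59 (adjusted p = 1.7e-13), 3.95 (adjusted p = 5.34e-13) and 3.63 (adjusted p = 1.21e-13) in MiaPaCa-2 and by 1.37 (adjusted p = 1.91e-10), 1.21 (adjusted p = 3.57e-09) and 0.99 (adjusted p = 3.04e-08) in PANC-1. At 2 µM in MiaPaCa-2 14, 13 and 15 of the 23 DNA replication genes were already lower, where 22.3%, 23.5% and 23.8% of all genes were, with medians of -0.63, -0.56 and -0.63. In PANC-1 limma called 0 of them at that dose with any statin (4, 1 and 2 at an unadjusted p under 0.05). Any part of these genes in the change of the histone mRNAs was not tested.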

How the data were processed

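Messenger RNA captured on poly-T beads from MiaPaCa-2 and PANC-1 cells was primed with random hexamers and read in pairs on an Illumina sequencer, per the labels' protocols. The deposited values are log2 FPKM of 8738 genes in 42 columns of 1 table. The submitters' processing notes name the hg19 build and the tools Cuffdiff, Cufflinks 1.1 and TopHat2 2.0.13. The table holds no counts, so depth is unknown and no counting interval can be given. The deposited log2 values run from 0.00424 to 12.7713 and were read as log2(FPKM + 1); no source used here gives the pseudocount. At least 97.1% of the values of a column (to 6 decimals) recurred in 5 or more columns, as in a table scaled to a shared distribution, a step that the sources used here do not give; such scaling removes differences in total level between libraries.

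The members, companion lists and tests were chosen with earlier results of these data known. Groups were taken from the labels, and 2 columns equal to weighted sums of others were left out, leaving 40 libraries. Each line was fitted with all its 7 groups in limma 3.58.1 under R 4.3.3, with trend and robust settings, over genes that reached 1 FPKM in 3 or more of its libraries (8534 for MiaPaCa-2, 8615 for PANC-1). A joint fit of all 8738 genes compared the lines. Tests were two-sided, with Benjamini-Hochberg adjustment over all genes of a contrast and a threshold of 0.05, and every fold change is on the log2(FPKM + 1) scale, which understates the change of low genes. The procedure was tested on simulated data. Replicate numbers of different groups did not pair the samples: 0 of 52 correlations of same-numbered deviations in MiaPaCa-2 and 2 of 63 in PANC-1 were over 0.1.

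All members were named, and from each companion list up to 4 genes with the largest mean change among those called the same way for all 3 statins of a line. For the members with the highest mean level and, among the 10 tested in both lines, the largest mean rise at 20 µM, the 5 non-member genes most correlated over the 14 group means were taken, of which 1 gene is not reported here. The alternatives tried were a replicate block, quantile normalization, all 42 columns, a pseudocount of 0.1, no filter, only the groups of the contrast, each library left out in turn, and PANC-1 control 3 left out together with PANC-1 simvastatin 20 µM replicate 3, the last chosen after seeing the data. Sequences came from GENCODE 29 models (GRCh38) and RefSeq promoters (GRCh38.p14), while the table was made on hg19, so none of its values were placed by coordinates.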

Additional observations from a re-analysis of the deposited data

Results flagged for a closer look

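The size of the response to 20 µM, as the log2 difference from the control in MiaPaCa-2 minus that in PANC-1, differed between the lines in limma's test of the difference itself for 17 pairs of gene and statin, which is why they are listed. They were 5, 8 and 4 of the 13 members with fluvastatin, lovastatin and simvastatin. Of all genes 34.2%, 32.5% and 46.1% were called, so the fluvastatin share is near that of all genes and the simvastatin share under it. With fluvastatin the differences were HIST1H2AC -0.82 (adjusted p = 0.00151), HIST3H2A 0.81 (adjusted p = 0.0497), HIST1H1C -1.53 (adjusted p = 5.35e-05), HIST1H4C 1.26 (adjusted p = 0.0191) and HIST4H4 1.33 (adjusted p = 0.0315). With lovastatin they were HIST3H2A 1.20 (adjusted p = 0.00701), HIST1H1C -1.24 (adjusted p = 0.00125), HIST1H2AG 0.80 (adjusted p = 0.0441), HIST1H4C 3.22 (adjusted p = 1.33e-06), HIST4H4 2.53 (adjusted p = 0.000261), HIST1H2BK -1.16 (adjusted p = 0.00499), HIST1H2BO 1.35 (adjusted p = 0.00587) and HIST1H3H 1.25 (adjusted p = 0.00929). With simvastatin they were HIST1H1C -1.64 (adjusted p = 1.37e-05), HIST1H4C 1.36 (adjusted p = 0.00882), HIST4H4 1.22 (adjusted p = 0.038) and HIST1H3H 0.84 (adjusted p = 0.0497). Among these called pairs HIST1H1C was the gene with a negative value for all 3 statins, with every 20 µM library of MiaPaCa-2 below the controls. HIST1H4C, HIST4H4 and HIST1H2BO were under 1 FPKM in all PANC-1 libraries other than control 3 for HIST4H4, and became members through MiaPaCa-2 libraries. For HIST1H4C and HIST1H2BO the difference is therefore close to the MiaPaCa-2 response alone. For HIST4H4 PANC-1 control 3 adds to the difference. Without that library HIST4H4 was 0.87 (adjusted p = 0.13) with fluvastatin and 0.76 (adjusted p = 0.155) with simvastatin, while its lovastatin call was kept. For HIST1H2AG with lovastatin the call was lost without MiaPaCa-2 control 2, at 0.64 (adjusted p = 0.186), and without 5 other single libraries (adjusted p from 0.0643 to 0.134). HIST1H3H with lovastatin was 1.03 (adjusted p = 0.0691) without MiaPaCa-2 control 2, and with simvastatin it was 0.62 (adjusted p = 0.228) without that library and lost without 8 other single libraries (adjusted p from 0.0516 to 0.125). With a pseudocount of 0.1 the calls of HIST1H4C, HIST3H2A and HIST4H4 with fluvastatin were lost (adjusted p = 0.0803, 0.287 and 0.074), as were those of HIST1H2AG, HIST1H2BO and HIST1H3H with lovastatin (adjusted p = 0.117, 0.254 and 0.0791). With simvastatin those of HIST1H4C, HIST4H4 and HIST1H3H were lost (adjusted p = 0.203, 0.147 and 0.238). Fitting only the groups of the contrast ended the calls of HIST3H2A and HIST4H4 with fluvastatin (adjusted p = 0.235 and 0.0983). It also ended those of HIST3H2A and HIST1H2AG with lovastatin (0.153 and 0.143) and of HIST4H4 with simvastatin (0.12). The 3 statins share the control libraries of each line, so their values are not independent.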

How the results depend on the processing

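Of 170 called results of single genes, 111 kept their call and direction under every alternative, and of 2116 alternative values 199 lost the call and 0 changed sign. Leaving out 1 library gave most of the losses, with 156 calls lost and 857 kept. Using all 42 columns, or no filter, ended 0 of the 170 calls. The 2 columns so added back are weighted sums of others, so that alternative could change little. For 52 counts of called members, quantile normalization moved none by more than 1.5 times. The deposited values already looked scaled to a shared distribution, so that step could change little and does not test other ways of scaling. The replicate block changed the count higher with simvastatin at 2 µM in MiaPaCa-2 from 2 to 1 and the count lower from 2 to 20 µM of simvastatin in PANC-1 from 0 to 1, and it ended 6 single calls; the replicate numbers gave no sign of pairing. Fitting only the groups of the contrast changed the count lower with fluvastatin at 20 µM in MiaPaCa-2 from 1 to 2, the count higher with simvastatin at 2 µM in PANC-1 from 2 to 0, the MiaPaCa-2 pairs fluvastatin and simvastatin at 2 µM from 1 to 0 and fluvastatin and lovastatin at 20 µM from 4 to 2, and the differences between the lines with fluvastatin from 5 to 3. A pseudocount of 0.1 changed the differences between the lines from 5 to 2, 8 to 5 and 4 to 1 for fluvastatin, lovastatin and simvastatin, and the MiaPaCa-2 pair simvastatin and lovastatin at 2 µM from 0 to 1. All 42 columns gave 1 for that pair and 2 in place of 1 for fluvastatin and simvastatin. Without a filter the count lower from 2 to 20 µM of simvastatin in PANC-1 was 1. Without PANC-1 control 3 and simvastatin 20 µM replicate 3 together, fluvastatin at 2 µM gave 1 higher and 1 lower in PANC-1, in place of 0 and 0. Apart from these constructions, the cause was not tested.

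Leaving out 1 library in turn, the counts ranged as follows. In MiaPaCa-2 against the control they ranged from 1 to 2 higher with fluvastatin at 2 µM, from 0 to 2 higher and 3 to 4 lower with simvastatin at 2 µM, and from 6 to 9 higher and 0 to 1 lower with simvastatin at 20 µM. In PANC-1 they ranged from 0 to 1 higher and 0 to 1 lower with fluvastatin at 2 µM, 0 to 1 higher with lovastatin and 1 to 2 higher with simvastatin at 2 µM, and 0 to 1 lower with each statin at 20 µM. From 2 to 20 µM the counts lower ranged from 1 to 2 with fluvastatin and 0 to 1 with lovastatin in MiaPaCa-2, and 0 to 1 with simvastatin in PANC-1. Between statins in MiaPaCa-2 they ranged from 0 to 1 for fluvastatin and simvastatin at 2 µM, and at 20 µM from 1 to 4 for fluvastatin and lovastatin, 2 to 5 for simvastatin and lovastatin and 3 to 5 for fluvastatin and simvastatin. In PANC-1 at 20 µM they ranged from 3 to 5 for fluvastatin and lovastatin and 2 to 4 for fluvastatin and simvastatin. The untreated lines gave 8 to 12 of 13, and the differences between the lines 2 to 6 with fluvastatin and 2 to 4 with simvastatin. In PANC-1 HIST1H4C, HIST4H4, HIST1H2BO and HIST1H3B stood at the lowest value of the column in 12, 6, 12 and 8 of 21 libraries, and the error behind a low FPKM cannot be computed without counts.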

Other observations

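Across the 14 group means, on the log2(FPKM + 1) scale, the non-histone gene whose profile was most like that of HIST1H2BK, the member with the highest mean level, was DAPK3 (Pearson r = 0.9159), followed by KIF1C, SEC16A and CDR2L, the last at 0.9066. For HIST1H2AC, which had the largest mean rise at 20 µM among the 10 members tested in both lines (1.45, and 1.46 without PANC-1 control 3, then below HIST2H2BE and HIST3H2A), it was LURAP1L (r = 0.9763), followed by OSBP2, KLF4, TOM1 and ZNF699, the last at 0.9724. Among the members themselves the closest pair was HIST3H2A and HIST1H3H (r = 0.9732). HIST1H4C and HIST1H2BO, both under 1 FPKM throughout PANC-1, followed at 0.959, and HIST1H2BD and HIST1H2AC, which lie in the same cluster on chromosome 6, were at 0.9265. HIST1H2BK and HIST4H4 were at 0.3853, and HIST2H2BE and HIST1H3B at 0.0657. These 14 points share 2 lines, 3 dose levels and the same 2 control groups, so the coefficients describe likeness of profile and carry no test.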
